A study of Mus musculus with 9 samples.

Results

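The 10 genes described here encode proteins that neutrophils carry or expose, and were followed in the myocardium of control, diabetic and spermine-treated diabetic mice. They are taken by symbol, a choice made with earlier results of these data known: S100a8, S100a9, Retnlg, Csf3r, Il1r2, Mmp8, Lcn2, Ngp, Camp and Ltf. All 10 had a row among the 22851 genes of the deposited count matrix. The CK group was the normal control, the DCM group was the diabetic cardiomyopathy model at 12 weeks after diabetes was induced with streptozotocin, and the SPM group was made diabetic in the same way for 12 weeks and received spermine, a natural polyamine, by injection before and after induction. Each group had 3 libraries of heart tissue from male mice, labelled C57BL/6 and given as C57BL/6J in the study's methods, and no transgene or deletion was carried by any group. There was no group given spermine without diabetes, so the SPM and DCM comparison measures spermine within diabetic hearts only. The study's methods describe the libraries both as 1 mouse each and as pooled hearts, so the p-values below measure the spread between libraries, whatever their source.

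Neutrophils are short-lived white cells made in the bone marrow and released to the blood. While they mature they fill granules in a fixed order, with primary granules first (Mpo, Elane), specific granules next (Ltf, Camp, Ngp, Lcn2) and gelatinase granules after them, and then switch these genes off, so granule transcripts are usually highest in immature marrow cells. Circulating neutrophils keep transcripts for S100a8 and S100a9, for the growth factor receptor Csf3r and for the decoy receptor Il1r2. In whole-heart RNA, fewer cells of a type and less RNA per cell cannot be told apart.

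The promoters of 4 members are shown because S100a8 and S100a9 had the highest SPM means per length and Mmp8 and Ngp are the granule genes with the largest differences between SPM and DCM. They are RefSeq sequences of build GRCm38.p6, given 5′ to 3′ on the strand of the gene, from at most 250 bases before the annotated start and ending before the first exon base of the GENCODE annotation. Capitals mark matches, on either strand, to TTGCNNAA (the core bound by C/EBP factors) or GAGGAAGT (bound by PU.1), which are regulators of granulocyte genes. The runs lie at chr3:90668821-90668977 on the plus strand for S100a8, chr3:90695722-90695971 on the minus strand for S100a9, chr9:7558179-7558428 on the plus strand for Mmp8 and chr9:110419558-110419746 on the plus strand for Ngp.
S100a8: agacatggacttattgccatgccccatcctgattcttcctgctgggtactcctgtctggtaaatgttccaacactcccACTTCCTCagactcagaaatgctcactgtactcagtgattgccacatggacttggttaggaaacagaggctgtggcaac
S100a9: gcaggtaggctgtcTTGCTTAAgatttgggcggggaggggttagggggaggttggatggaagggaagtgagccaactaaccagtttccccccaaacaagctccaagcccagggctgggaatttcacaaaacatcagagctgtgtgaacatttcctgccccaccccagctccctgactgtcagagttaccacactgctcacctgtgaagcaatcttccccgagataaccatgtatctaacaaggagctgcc
Mmp8: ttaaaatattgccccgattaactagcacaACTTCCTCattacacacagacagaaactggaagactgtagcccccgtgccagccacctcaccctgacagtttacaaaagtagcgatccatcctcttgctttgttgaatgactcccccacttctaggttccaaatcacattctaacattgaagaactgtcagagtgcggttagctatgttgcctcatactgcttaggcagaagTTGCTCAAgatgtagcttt
Ngp: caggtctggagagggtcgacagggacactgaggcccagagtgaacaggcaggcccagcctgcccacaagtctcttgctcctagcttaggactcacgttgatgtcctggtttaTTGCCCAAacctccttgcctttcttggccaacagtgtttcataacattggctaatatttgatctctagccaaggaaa
Of the 10 member promoters, read over the 250 bases before the start, 6 held the C/EBP letters (S100a9, Retnlg, Mmp8, Lcn2, Ngp and Ltf), against 9.56% of 32851 mouse promoters of the same length. The PU.1 letters were found in 2 of 10 (S100a8 and Mmp8), against 2.44%. TTCNNNGAA, the spacing bound by STAT factors, was found in 1 of 10 (Il1r2), against 7.02%, and the AP-1 letters TGANTCA in 0 of 10, against 6.75%. TATAAA was found in 1 of 10 (S100a8), against 12.4%. The starts used here are those of RefSeq. The windows of Lcn2 and Il1r2 lie wholly inside these genes as GENCODE annotates them, so their matches are not upstream of the GENCODE gene. Nor are the TATAAA of S100a8, 30 to 25 bases before the RefSeq start, and a further C/EBP match of Ngp, at 11 to 4 bases. Both lie past the end of the printed runs. A match is a run of letters and not a measured binding site.

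S100a8 (ENSMUSG00000056054, chromosome 3, 90668978 to 90670035) and S100a9 (ENSMUSG00000056071, chromosome 3, 90692632 to 90695721) are neighbours 22597 bases apart. Coordinates are those of GENCODE release M21 on GRCm38, since the files give none. Mmp8, Ngp, Camp and Ltf all lie on chromosome 9. Il1r2 on chromosome 1 overlaps the annotated genes Gm16894 and Gm37347, and reads of overlapping genes may not have been separated, because nothing states whether the counting used strand.

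CK libraries held 29901300 to 33990348 counts, DCM libraries 30556114 to 39718680 and SPM libraries 31472566 to 33444305. The mitochondrial share of counts spanned 13.7% to 16.2% for CK and 15.5% to 18.9% for DCM, and was 21% in each SPM library, above every other library. The heart label held, with 6 of 6 measured cardiomyocyte markers present in every library at a summed 32290 to 44547 CPM (the normalised read count, a count relative to the library total scaled by edgeR's TMM factor), although the extraction text names retinas. The 5 measured retina markers summed to 0.195 to 0.765 CPM. Several libraries stood apart. CK replicate 2 held 1844 counts over the 5 lung epithelium markers, which summed to 0 to 7 counts in the 8 other libraries. SPM replicates 1 and 2 held 342.8 and 157.0 CPM of summed liver markers, against 1.79 in SPM replicate 3. The counts of SPM replicate 2 lay close to a blend of 44% SPM replicate 1 with SPM replicate 3, with a median squared deviation 0.887 times that of counting noise, and the next closest of the 252 combinations of libraries deviated by 2.57 times. Of 2656 genes without a count in SPM replicates 1 and 3, 30 had one in SPM replicate 2. Because SPM replicate 2 may not be independent of the other SPM libraries, calls that include SPM are also given without it.

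Per length, S100a9 was the most abundant member in every group, at a mean of 4.28 FPKM in CK, 13.4 in DCM and 34.1 in SPM. S100a8 reached 15.3 FPKM in SPM, Lcn2 8.18, Retnlg 7.54 and Csf3r 3.30. The other members had SPM means below 1 FPKM (Ngp 0.966, Mmp8 0.591, Il1r2 0.470, Ltf 0.153 and Camp 0.136). In normalised CPM, the group means of S100a9 were 2.13 ± 0.698 in CK, 7.09 ± 3.94 in DCM and 18.1 ± 7.79 in SPM (SD, n = 3 each). Csf3r had means of 4.05 ± 1.63, 6.62 ± 2.75 and 11.8 ± 1.46 CPM, and Ngp of 0.0199 ± 0.0174, 0.0518 ± 0.0660 and 1.21 ± 0.439 CPM, in the same order. The DCM libraries were widely spread for these genes, with replicate 3 the highest for S100a9 and Csf3r and replicate 1 for Ngp.

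**Figure D1:**
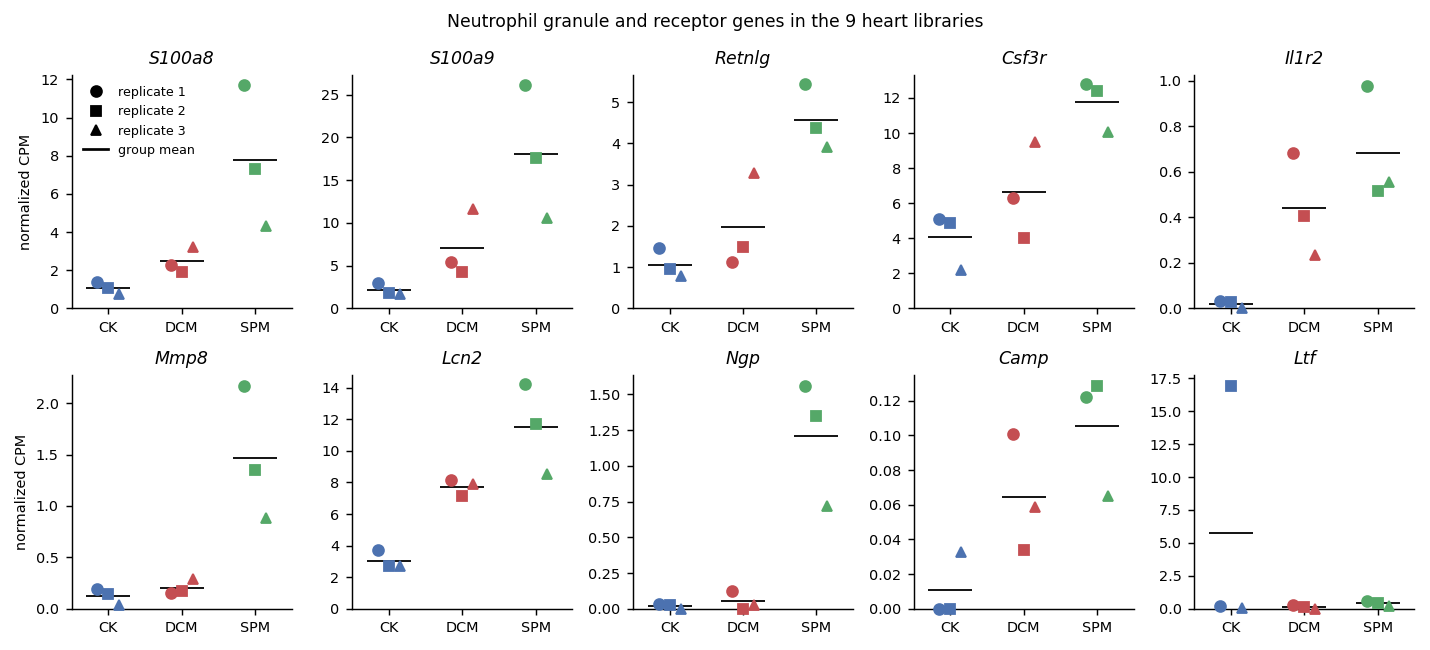
Level of each of the 10 member genes in each of the 9 libraries, in normalised CPM on the vertical axis, with the libraries grouped as CK, DCM and SPM and a line at each group mean. S100a9 spanned 1.69 to 2.93 CPM in CK and 10.6 to 26.1 in SPM, and the single high CK point of Ltf, at 16.9 CPM, is CK replicate 2.

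Which members differed between diabetic and control hearts was asked by DCM compared to CK. S100a8, S100a9 and Lcn2 were upregulated, 2 members did not pass the test and 5 were under the low-count filter and not tested. Among these 5, Ltf had 606 counts in CK replicate 2 and 0 to 11 in the other CK and DCM libraries. A gene was called changed when its adjusted p in edgeR's quasi-likelihood test was below 0.05 and its fold change was at least 1.5. By that rule 3 of the 10 members were upregulated and 0 downregulated, where 2.03% of all 14402 genes tested were upregulated and 2.31% downregulated. In 5 of 10 members (S100a8, S100a9, Lcn2, Il1r2 and Camp) every DCM library lay above every CK library in CPM, as for 14.7% of all tested genes, while 0 members had every DCM library below CK (14.6% of genes). These shares are over tested genes only, and Il1r2 and Camp were not tested. For Camp the separation rests on library scaling alone, since CK replicate 3 and DCM replicate 2 each had 1 count.

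S100a8 and S100a9 encode the subunits of calprotectin, the main calcium- and zinc-binding protein of the neutrophil cytosol. S100a8 measured 1.40, 1.06 and 0.747 CPM in CK replicates 1 to 3 and 2.27, 1.90 and 3.23 CPM in DCM. The groups did not overlap, and the log2 fold change was 1.20 (SE 0.33, edgeR adjusted p = 0.0394). This call was lost in 8 of 16 alternatives, among them leaving out CK replicate 2 (adjusted p = 0.111), CK replicate 3 (0.105), DCM replicate 1 (0.0711), DCM replicate 2 (0.0513) or DCM replicate 3 (0.167). S100a9 measured 2.93, 1.76 and 1.69 CPM in CK and 5.40, 4.27 and 11.6 CPM in DCM. DCM replicate 3 was the highest of the diabetic libraries for both genes, and the S100a9 log2 fold change of 1.74 (SE 0.35, edgeR adjusted p = 8.20e-03) passed in 16 of 16 alternatives.

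Lcn2 encodes lipocalin 2, a specific granule protein that binds bacterial siderophores and is also made by stressed epithelium and other cells. Lcn2 measured 3.70, 2.71 and 2.69 CPM in CK and 8.17, 7.15 and 7.89 CPM in DCM. The DCM libraries were closely grouped and all above CK, with a log2 fold change of 1.35 (SE 0.18, edgeR adjusted p = 5.28e-04) that passed in 16 of 16 alternatives.

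The receptors were less clear. Csf3r, the receptor for granulocyte colony-stimulating factor, measured 5.10, 4.89 and 2.18 CPM in CK and 6.31, 4.03 and 9.51 CPM in DCM. Its groups overlapped, and its log2 fold change of 0.70 (SE 0.33) did not pass (edgeR adjusted p = 0.208). Il1r2, a decoy receptor that binds interleukin 1 without signalling, had 1, 1 and 0 counts in CK and 27, 12 and 8 counts in DCM. Every DCM library was above every CK library, at a count ratio of 22.3 relative to the TMM-scaled library totals (exact 95% interval 5.84 to 189.6, counting error only). It was under the low-count filter and so was not tested by the main rule, while in alternatives that kept it the adjusted p was 4.40e-03 without the filter, 6.01e-03 with all 9 libraries in 1 fit and 0.0133 by DESeq2.

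Retnlg, which encodes a resistin-like protein secreted by neutrophils, measured 1.47, 0.949 and 0.779 CPM in CK and 1.14, 1.49 and 3.29 CPM in DCM. The groups overlapped, and its log2 fold change of 0.88 (SE 0.43) did not pass (edgeR adjusted p = 0.232). The remaining granule genes were near the counting limit in both groups. Mmp8, the neutrophil collagenase, had 6, 5 and 1 counts in CK and 6, 5 and 10 in DCM, a ratio of 1.66 (exact 95% interval 0.781 to 3.70). Ngp, neutrophilic granule protein, had 1, 1 and 0 counts in CK and 5, 0 and 1 in DCM, and Camp, the precursor of the antimicrobial peptide cathelicidin, had 0, 0 and 1 in CK and 4, 1 and 2 in DCM. A difference in these genes was not detectable at this depth. Ltf, lactoferrin, had 7, 606 and 2 counts in CK and 11, 5 and 0 in DCM, so the CK level rested on CK replicate 2, the library with the lung transcripts, and the part of those transcripts in it was not tested.

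Whether the members differed between spermine-treated and untreated diabetic hearts was asked by SPM compared to DCM. S100a8, S100a9, Retnlg, Csf3r, Mmp8 and Ngp were upregulated, which is 6 of 10 members (8 were tested) and 0 were downregulated, where 2.70% of all 14493 genes tested were upregulated and 0.890% downregulated. In 6 of 10 members every SPM library lay above every DCM library, as for 19.1% of tested genes. Leaving out a library cannot lower this count, which was again 6 without SPM replicate 2 (20.2% of genes). In 0 members was every SPM library below DCM (20.4% of genes). The DCM libraries are the same as in the comparison with CK. Mmp8, Ngp and Il1r2 were under the low-count filter in DCM compared to CK and entered this test and that of SPM compared to CK only through the SPM libraries, where they are high, so a difference in them is partly fixed by the filter.

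Among the granule genes, Ngp had 5, 0 and 1 counts in DCM and 51, 42 and 22 counts in SPM, or 0 to 0.126 CPM against 0.716 to 1.56 CPM. Every SPM library was well above every DCM library, at a log2 fold change of 4.33 (SE 0.68, edgeR adjusted p = 9.73e-03) and a count ratio of 20.9 (exact 95% interval 9.32 to 58.2). Leaving out 1 library moved this log2 fold change to between 3.86 (without DCM replicate 2) and 5.95 (without DCM replicate 1). Mmp8 had 6, 5 and 10 counts in DCM and 71, 42 and 27 in SPM, or 0.151 to 0.293 CPM against 0.878 to 2.17 CPM. Its groups were also apart, at a log2 fold change of 2.83 (SE 0.48, edgeR adjusted p = 0.0107). Camp stayed low, with 4, 1 and 2 counts in DCM and 4, 4 and 2 in SPM, a ratio of 1.56 (exact 95% interval 0.536 to 4.83). Ltf had 11, 5 and 0 counts in DCM and 20, 14 and 7 in SPM and was not tested. Lcn2 measured 8.17, 7.15 and 7.89 CPM for DCM and 14.2, 11.7 and 8.56 CPM for SPM. The SPM libraries were all higher, and the log2 fold change of 0.58 (SE 0.17, edgeR adjusted p = 0.0424) was under the fold limit.

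For calprotectin, S100a8 rose from 2.27, 1.90 and 3.23 CPM in the DCM libraries to 11.7, 7.32 and 4.33 CPM in SPM. The log2 fold change was 1.66 (SE 0.33, edgeR adjusted p = 0.0149). S100a9 rose from 5.40, 4.27 and 11.6 CPM in DCM to 26.1, 17.6 and 10.6 CPM in SPM. DCM replicate 3 lay above SPM replicate 3, so these groups overlapped, at a log2 fold change of 1.36 (SE 0.37, edgeR adjusted p = 0.0342). This call was lost in 9 of 17 alternatives, among them DESeq2 (adjusted p = 0.0761) and limma on FPKM (0.0610). Retnlg measured 5.44, 4.37 and 3.90 CPM in SPM, all above DCM, with a log2 fold change of 1.22 (SE 0.34, edgeR adjusted p = 0.0380), and its call was lost in 7 of 17 alternatives. Csf3r measured 12.8, 12.4 and 10.1 CPM in SPM, also all above DCM, with a log2 fold change of 0.83 (SE 0.24, edgeR adjusted p = 0.0415). The Csf3r call was lost in 8 of 17 alternatives, among them limma on FPKM (adjusted p = 0.0709) and all 9 libraries in 1 fit (0.0756). Il1r2 had 32, 16 and 17 counts in SPM against 27, 12 and 8 in DCM, overlapped between the groups and did not pass (log2 fold change 0.62, SE 0.48, edgeR adjusted p = 0.393).

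These calls changed with the libraries used. SPM replicate 1 held the highest SPM level in 9 of the 10 members and SPM replicate 3 the lowest in 9. Without SPM replicate 2, 1 of the 6 calls (Ngp) passed, without DCM replicate 2 also 1 (Ngp), without DCM replicate 1 2 (Mmp8 and Ngp) and without SPM replicate 1 3 (Mmp8, Ngp and S100a8). Without SPM replicate 2 the log2 fold changes were 1.71 for S100a8, 1.38 for S100a9, 1.26 for Retnlg, 0.80 for Csf3r and 2.89 for Mmp8, with edgeR adjusted p-values of 0.0520 to 0.12. Over all 6 omissions S100a8 ran from 1.24 to 1.95, Mmp8 from 2.43 to 3.17, Retnlg from 0.93 to 1.80, Csf3r from 0.58 to 1.17 and S100a9 from 0.99 to 1.90. DESeq2 called 5 members, limma on FPKM 4 and the fit of all 9 libraries 5. With SPM replicate 3 as the only SPM library, 0 members were called by edgeR and 5 had an unadjusted p below 0.05. With an offset for GC content 3 were called (Mmp8, Ngp and S100a8). Over all genes the calls went from 521 to 56 at the lowest when a single library was left out (SPM replicate 2). The part of the liver transcripts in SPM replicates 1 and 2, and of the higher mitochondrial share of the SPM libraries, in these results was not tested. SPM replicate 3, with liver markers at 1.79 CPM, lay above every DCM library in 6 of 10 members (32.6% of tested genes).

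**Figure D2:**
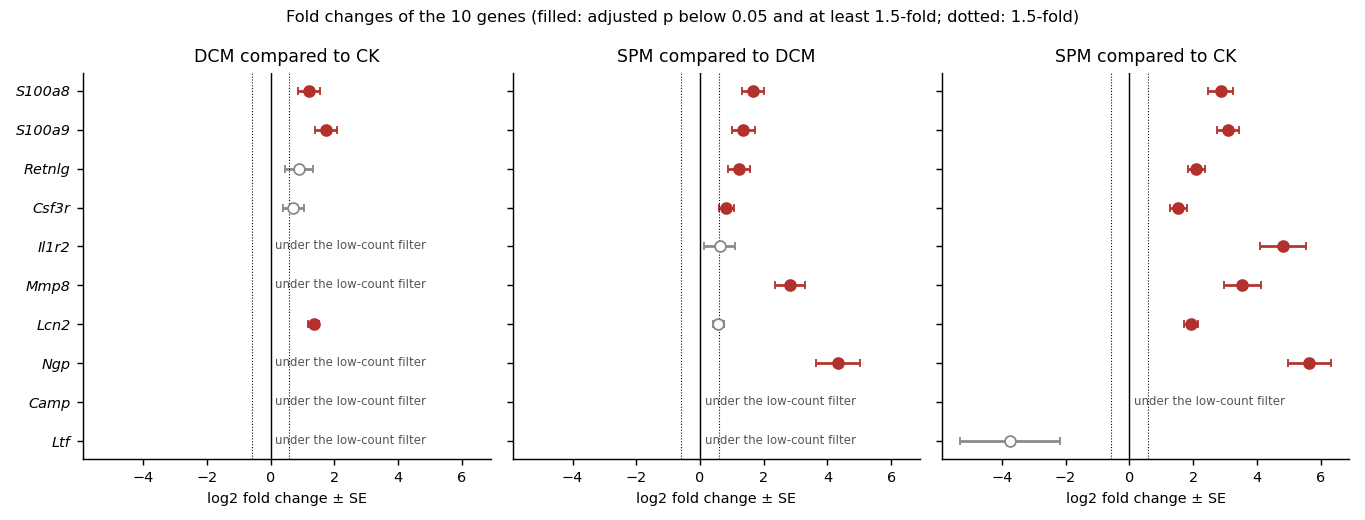
Log2 fold change of each member in DCM compared to CK, SPM compared to DCM and SPM compared to CK, from edgeR with standard errors, with members under the low-count filter marked as such. Ngp and Mmp8 have the largest values between SPM and DCM, at 4.33 and 2.83, and Ltf is the one negative value, at -3.74 in SPM compared to CK.

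SPM compared to CK asked how far treated diabetic hearts stood from normal ones. Of 10 members, 8 were upregulated (S100a8, S100a9, Retnlg, Csf3r, Il1r2, Mmp8, Lcn2 and Ngp) and 0 downregulated, where 5.08% of all 14574 genes tested were upregulated and 4.12% downregulated. Every SPM library lay above every CK library in 9 of 10 members, as for 22.7% of genes, and, as fewer libraries cannot lower the count, again in 9 without SPM replicate 2 (23.7%) and with SPM replicate 3 alone (34.7%). Without SPM replicate 2 the same 8 members were called. In 0 members was every SPM library below CK (23.4%). The exception was Ltf. Camp, among the 9, was not tested, while these shares are over tested genes only.

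Ngp had 1, 1 and 0 counts in CK and 51, 42 and 22 in SPM, at a log2 fold change of 5.64 (SE 0.68, edgeR adjusted p = 1.29e-03) and a count ratio of 59.6 (exact 95% interval 16.1 to 497.8). The fitted fold depends on a small prior count where CK is this low. Il1r2 had 32, 16 and 17 counts in SPM, a ratio to CK of 33.7 (exact 95% interval 8.95 to 283.9), with a log2 fold change of 4.82 (SE 0.71, edgeR adjusted p = 2.64e-03). Mmp8 had a log2 fold change of 3.55 (SE 0.58, edgeR adjusted p = 3.81e-03). The abundant members followed with smaller folds. S100a9 had a log2 fold change of 3.09 (SE 0.35), S100a8 of 2.86 (SE 0.39), Retnlg of 2.10 (SE 0.28), Lcn2 of 1.92 (SE 0.21) and Csf3r of 1.53 (SE 0.27), and their edgeR adjusted p-values ranged from 1.10e-03 to 5.22e-03. With SPM replicate 3 as the only SPM library 3 of the 8 calls passed (S100a8, S100a9 and Lcn2), and without CK replicate 2 and SPM replicate 2 together 6 passed, with Csf3r at an adjusted p of 0.0504 and Mmp8 at 0.0537. Camp had 0, 0 and 1 counts in CK and 4, 4 and 2 in SPM, a ratio of 10.4 (exact 95% interval 1.47 to 449.6). Ltf had a log2 fold change of -3.74 (SE 1.56, edgeR adjusted p = 0.106), which became 1.55 without CK replicate 2.

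Ratios of counts within a library compare genes without the library scaling. Of the 5 granule members, Mmp8 and Ngp were set against the receptor Csf3r. Lcn2, Camp and Ltf were not, so these ratios do not speak for the granule genes as a class. Between SPM and DCM the count ratio was 1.75 for Csf3r, against 1.48 for Lcn2, 1.56 for Camp and 2.80 for Ltf. Camp and Ltf had few counts in both groups. Mmp8 was 1.49% to 3.75% of Csf3r for the CK libraries, 2.40% to 4.20% for DCM and 8.71% to 16.9% for SPM. Ngp was 0% to 0.625% of Csf3r for the CK libraries, 0% to 2.0% for DCM and 7.10% to 12.2% for SPM. Both ratios were higher in every SPM library than in any other library. Ngp and Mmp8 had the largest log2 fold changes of the tested members between SPM and DCM (4.33 and 2.83, against 0.83 for Csf3r). The higher ratios in SPM restate those differences and are no separate support for them. Set against S100a9 instead, Mmp8 spanned 1.92% to 7.94% for CK, 2.53% to 3.97% for DCM and 7.68% to 8.31% for SPM, and CK replicate 2 then lay above SPM replicate 2. S100a9 relative to Csf3r spanned 36.0% to 77.6% for CK, 85.6% to 121.9% for DCM and 104.8% to 204.1% for SPM. The S100a8 count, set against that of its partner, was 44.2% to 60.3% of S100a9 for CK, 27.8% to 44.4% for DCM and 40.9% to 44.8% for SPM. Lcn2 relative to S100a9 spanned 126.1% to 159.6% for CK, 68.1% to 167.5% for DCM and 54.5% to 80.9% for SPM, so the SPM libraries were all below CK and overlapped DCM.

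**Figure D3:**
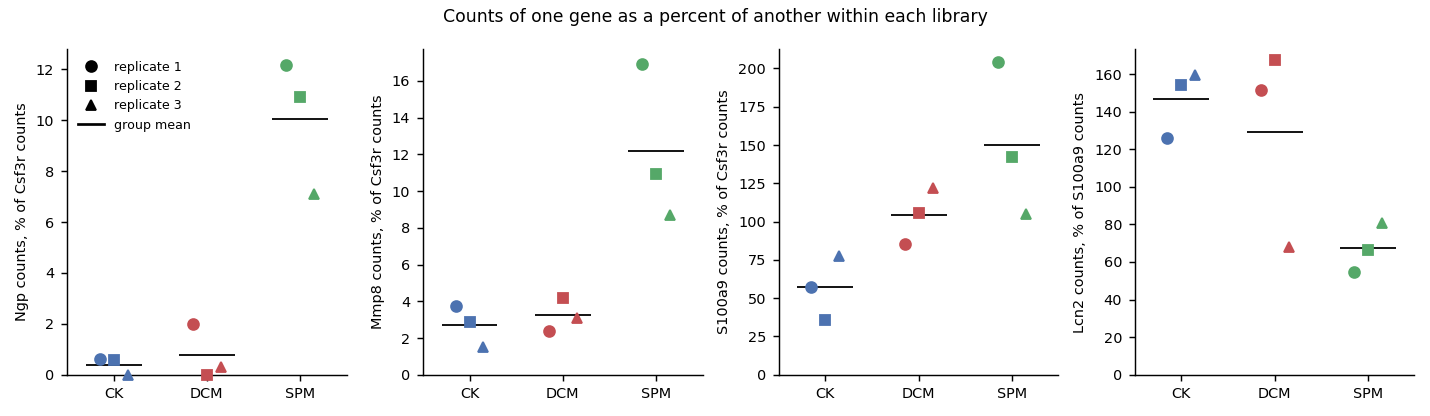
Ratios of member counts within each library, in percent on the vertical axis, with 1 point per library in CK, DCM and SPM. Mmp8 and Ngp relative to Csf3r are higher in all 3 SPM libraries (8.71% to 16.9% and 7.10% to 12.2%) than in the 6 other libraries. These members had the largest fold changes between SPM and DCM, which the ratios restate.

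Other neutrophil genes were read from lists set apart from the members. Of 9 measured mature surface and late genes, 5 were tested in DCM compared to CK and 0 called. In SPM compared to DCM 7 were tested and 1 rose (Clec4d, a C-type lectin receptor, log2 fold change 1.72), where 2.70% of all tested genes rose. In SPM compared to CK 7 were tested and 5 rose (Mmp9, Cxcr2, Clec4e, Clec4d and Fpr1), where 5.08% of all tested genes rose. The median log2 fold change of the 7 was 2.68 there, against 0.00215 over all genes. Cxcr2, the receptor for neutrophil-attracting chemokines, had a log2 fold change of 2.68 in SPM compared to CK. Clec4e and Fpr1 were under the low-count filter in DCM compared to CK and entered through the SPM libraries. A difference in them is thus partly fixed by the filter. Of 8 measured specific granule and immature genes, 4 were tested in DCM compared to CK and 0 called. In SPM compared to DCM 5 were tested and 3 rose (Hp 1.49, Chil3 2.43 and Cd177 2.46, as log2 fold changes). In SPM compared to CK 6 were tested and 2 rose (Chil3 and Ifitm6). Cd177 too was under the filter in DCM compared to CK and entered through the SPM libraries. Haptoglobin, the product of Hp, is also a liver protein, and liver markers were high in SPM replicates 1 and 2. They were raised to a lesser degree in CK replicate 2, where Hp was at 22.1 CPM. The primary granule genes were near 0. Mpo had 0 counts in CK and DCM and 2 over the SPM libraries, Elane had 1 count in each group, and Prtn3 had 5 counts in CK, 6 in DCM and 37 in SPM, 24 of them in SPM replicate 1. Ly6g, a surface marker of mouse neutrophils chosen after its values were seen, had 0 counts in CK, 6 in DCM and 15 in SPM. Of 8 measured binding partners, 7 were tested in DCM compared to CK and 8 in each SPM comparison. In SPM compared to DCM 1 rose (Il1rn, the interleukin 1 receptor antagonist, log2 fold change 1.89), and 0 were called in the other comparisons. Il1rn was also under the filter in DCM compared to CK and entered through the SPM libraries. Without SPM replicate 2, Clec4d, Hp, Chil3, Cd177 and Il1rn were no longer called in SPM compared to DCM, and in SPM compared to CK 4 of the mature genes (Clec4d, Clec4e, Fpr1 and Mmp9) and 1 of the granule genes (Chil3) were. The 4 measured neutrophil-attracting chemokines summed to 5.45 to 8.15 CPM for CK, 1.93 to 7.82 for DCM and 7.12 to 8.36 for SPM. In each comparison 3 of them were tested and 0 called.

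Markers of other blood cells also differed between the groups, not always in the direction of the members. In DCM compared to CK, Adgre1 of 10 macrophage and Vcan of 6 monocyte markers fell, where 2.31% of all tested genes fell. In these lists 0 markers rose, and the median log2 fold changes were -0.47 and -0.69, against -0.00248 over all genes. The 10 macrophage markers summed to 800.6 to 1056 CPM for CK, 669.2 to 791.6 for DCM and 793.3 to 1338 for SPM. In SPM compared to DCM 6 of 10 rose, where 2.70% of all tested genes rose. The 6 monocyte markers summed to 59.9 to 69.7 CPM for CK, 53.8 to 62.4 for DCM and 79.1 to 105.4 for SPM, and 3 of 6 rose in SPM compared to DCM (Plac8, Ccr2 and F13a1). The 4 tested erythroid markers fell in SPM compared to DCM and to CK, where 0.890% and 4.12% of all tested genes fell. The erythroid markers had sums of 1544 to 3619 CPM for CK, 1331 to 3296 for DCM and 753.1 to 1295 for SPM. In SPM compared to CK, Cd163 of the macrophage markers and Plac8, Ccr2 and F13a1 of the monocyte markers rose, where 5.08% of all tested genes rose. Without SPM replicate 2, Plac8 was the one macrophage, monocyte or erythroid marker called in SPM compared to DCM. In SPM compared to CK, Cd163 and F13a1 then still rose and 3 erythroid markers still fell. Of the 3 tested mast cell, basophil and eosinophil markers, Cpa3 rose in SPM compared to DCM (log2 fold change 1.17, edgeR adjusted p = 0.0328). The others, Tpsb2 and Mcpt4, had log2 fold changes of -0.38 and -0.32 and were not called. In SPM compared to CK, Pax5 and Cd79b of 4 tested B cell markers fell. So did Gp9 of 5 platelet markers and Ccnb1 of 5 proliferation markers. The part of these cells in the results for the members was not tested.

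**Figure D4:**
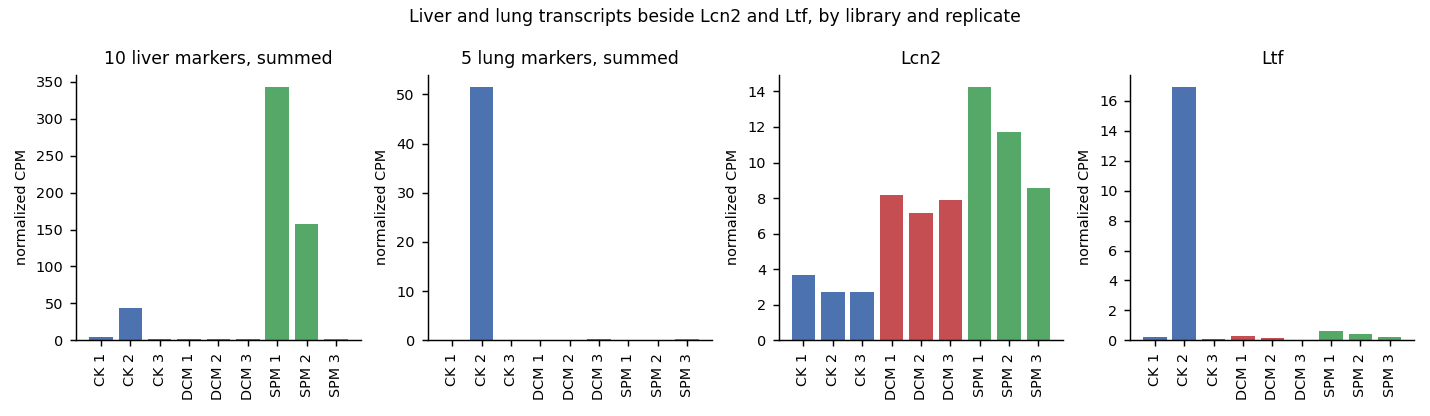
Bars give the normalised CPM of 10 liver markers summed, 5 lung epithelium markers summed, Lcn2 and Ltf in each of the 9 libraries. Liver markers reach 342.8 and 157.0 CPM in SPM replicates 1 and 2 and 43.2 CPM in CK replicate 2. Lung markers reach 51.5 CPM in CK replicate 2, where Ltf is at 16.9 CPM.

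Over the 9 libraries, the profiles nearest to S100a8 among 12604 genes were found by the root mean square difference of log2(CPM + 0.1) about each gene's mean. Apart from members, they were Clec4d (0.293), Serpina3n (0.415), Cxcr2 (0.445), Ifi205 (0.492) and Itih3 (0.497), while S100a9 lay at 0.280 and Mmp8 at 0.361. For Ngp they were Ccl8 (0.591), Itih3 (0.683), Clec4d (0.737), Saa3 (0.746) and Fcgr4 (0.844), with Mmp8 at 0.550.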

How the data were processed

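RNA of 9 mouse heart libraries (3 each in CK, DCM and SPM) was sequenced by the authors, who deposited a matrix of raw counts per gene and FPKM values for each library. FPKM were computed by the authors from these counts and a gene length. The study's methods name fastp for read cleaning and DESeq2 for the authors' own comparisons. The submitters' processing notes name Bowtie 0.12.2 and mouse builds without a role, and say nothing of the counting tool or annotation. Of the Ensembl identifiers, 22820 were named from the reference tables and 31 were not.

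Groups came from the labels. Counts as deposited were tested by edgeR 4.0.16 (R 4.3.3) with TMM scaling, filterByExpr and a quasi-likelihood fit on the 6 libraries of each comparison, and p-values were adjusted by Benjamini-Hochberg over all genes tested. A gene was called at an adjusted p under 0.05 with a change of 1.5-fold or more. The test was checked on simulated data in which all genes varied alike and only genes above a minimum mean count were changed. That check does not cover genes with fewer counts or a wider spread. FPKM served for levels between genes, and for an alternative with limma 3.58.1 on log2(FPKM + 0.1). DESeq2 1.42.0, other filters, a GC offset, a replicate block and leaving out libraries were the further alternatives. Count ratios between groups are relative to library totals scaled by the TMM factor, which were 29499736 to 39637623 counts. They have exact binomial 95% intervals, which cover counting error only. All 10 members are described, and the rule for other genes took those called within their list, the 3 with most counts in each list, and the 5 nearest in profile to S100a8 and to Ngp among genes averaging at least 1 CPM. The members and lists were chosen with earlier results of these data known. Promoters were RefSeq sequences of GRCm38.p6.

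Same-numbered libraries of different groups did not deviate together (correlations of -0.0745 to 0.205, against -0.284 to 0.218 for other pairs), so the numbers were not taken to pair the libraries.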

Additional observations from a re-analysis of the deposited data

How the results depend on the processing

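Of 370 values of single members recomputed under an alternative, 317 kept their direction and side of the threshold, 47 lost the call, 5 gained it and 1 reversed. The reversal was Ltf in SPM compared to CK, at a log2 fold change of 1.55 without CK replicate 2. Its value was -4.31 without CK replicate 3. Members called in DCM compared to CK numbered 3, and 6 without the low-count filter (5 higher and Ltf lower at a log2 fold change of -5.20, on CK replicate 2), which tests more genes, and 2 to 4 when 1 library was left out. In SPM compared to DCM they numbered 6, and 3 with the GC offset, 0 with SPM replicate 3 as the lone SPM library (edgeR, 5 at an unadjusted p below 0.05) and 1 to 7 with 1 library left out. In SPM compared to CK they numbered 8, and 5 with the filter of at least 1 CPM, which leaves 5 members to test, 3 with SPM replicate 3 alone and 8 to 8 with 1 library left out. A lone library is assumed to vary like the other group. Over all genes, DCM compared to CK gave 625 calls, and 1497 without the fold limit and 427 to 704 with 1 library left out. SPM compared to DCM gave 521, and 126 with the GC offset (98 higher and 28 lower, against 392 and 129), 227 with the replicate block and GC offset together, 184 with SPM replicate 3 alone, 2410 without the fold limit and 56 to 791 with 1 library left out. SPM compared to CK gave 1342, and 308 with SPM replicate 3 alone, 408 without CK replicate 2 and SPM replicate 2, 3989 without the fold limit and 771 to 1589 with 1 library left out. Settings with SPM replicate 3 alone and without CK replicate 2 and SPM replicate 2 were chosen after seeing the data. With the replicate block, 2, 6 and 8 members and 568, 610 and 1282 genes were called in the same order of comparisons. The cause of the changes with the GC offset was not tested. Depth limited Camp, and Ngp, Mmp8 and Il1r2 outside SPM.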
